A study of Homo sapiens with 2 samples.

Results

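The Argonaute and TNRC6 genes encode the core of the RNA-induced silencing complex, RISC. Their RNAs were followed here in PTBP1 immunoprecipitates of MKN-28, an established cell line from gastric cancer. The 7 members were AGO1, AGO2, AGO3, AGO4, TNRC6A, TNRC6B and TNRC6C, chosen by symbol, and older EIF2C symbols were counted for the argonautes. Peaks were named for 4 of the 7 members in the mRNA table, among 5186 genes with a named peak in all. RNA immunoprecipitation used cells with no listed treatment and either a PTBP1 antibody or normal rabbit IgG as the negative control, and each antibody gave 1 sequenced library. The deposited values were peaks called for PTBP1 against IgG on the hg19 build, with 8479 peak positions in the mRNA table and 2849 in the lncRNA table. No difference between the antibodies has a replicate check, so no test is given.

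Argonaute proteins hold a small guide RNA, usually a microRNA, and bring it to messages with matching sequence. AGO2 is the human argonaute best known for cutting its target. The TNRC6 proteins, also called GW182 proteins, bind the argonautes and recruit the deadenylases that shorten the poly(A) tail of the target. PTBP1, an hnRNP protein, prefers RNA rich in pyrimidines, and the study asked whether it keeps the AGO2 protein away from TGFB1 and TGFB2 mRNA. These libraries bear on another measure, the RNAs of the silencing genes themselves in the PTBP1 immunoprecipitate.

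The first question was which of the 7 genes had a named peak. AGO2 was named for 5 peaks, AGO3 and TNRC6B for 2 each and AGO1 for 1, 10 peaks in all. No peak was named for AGO4, TNRC6A or TNRC6C. As the background, 25.7% of 20056 protein-coding genes had a named peak in the mRNA table. The peak overlapped the listed transcript of its own gene at AGO2 and TNRC6B, 2 of the 7 members, beside 17.9% of protein-coding genes. AGO2 and AGO3 had a named peak of at least 20 tags, beside 12.1% of protein-coding genes. AGO3 and TNRC6B had a named peak of at least 10-fold, beside 8.46%. With 7 genes, these counts describe the members and rank no pathway. Gene length and the RNA level in these cells were not taken into account.

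The named peaks had folds from 2.84 to 16.56, with a median of 9.2 beside 7.08 for all mRNA peaks. Their median tag count was 8.5 beside 13, and 6 of the 10 peaks held fewer than 10 tags, beside 36.6% of all mRNA peaks. The fold is the enrichment over the IgG background given by the authors, and tags are the reads inside the peak. No peak of the members was in the promoter class, which covered the bases within 2000 of a listed start and held 20.9% of all mRNA peaks. Exons held 3 of the 10 member peaks beside 32.4% of all mRNA peaks, and introns held 1 beside 15.1%. The upstream class held 3 beside 16.4% and the intergenic class 3 beside 15.2%. The false discovery rate of the member peaks lay between 43.92% and 66.61%, and it was never below 43.06% for any mRNA peak.

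**Figure D1:**
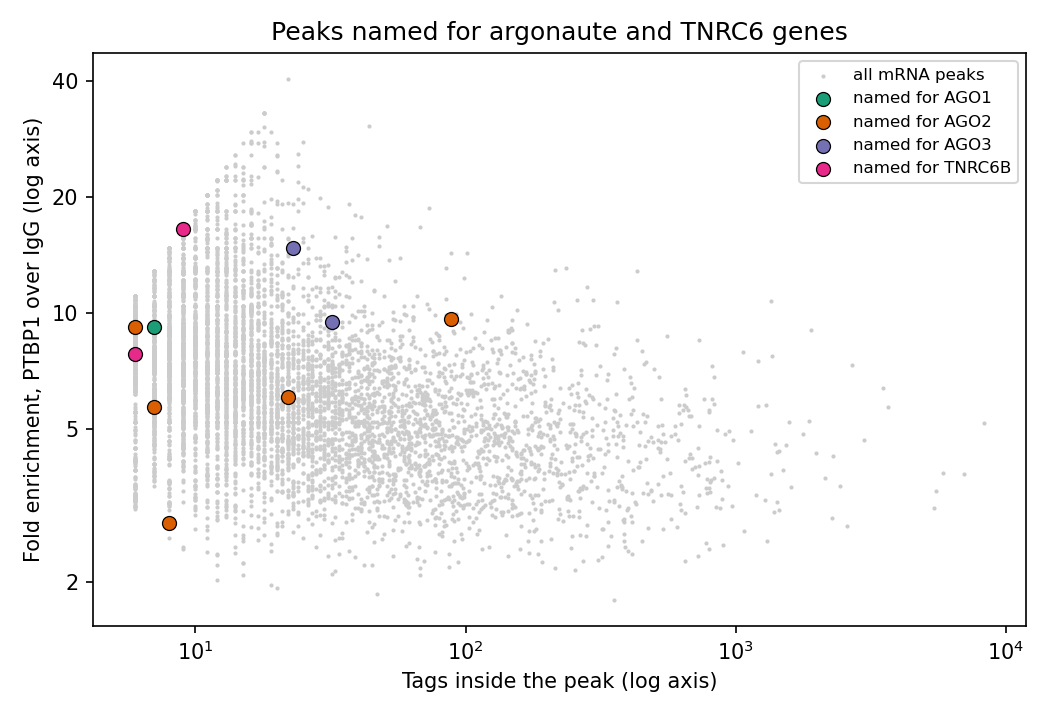
Each point is a peak of the mRNA table, with the tags inside the peak on a log x axis and the fold enrichment of PTBP1 over IgG on a log y axis. Grey points are all 8479 peaks and colored points are the 10 peaks named for AGO1, AGO2, AGO3 or TNRC6B. The AGO2 peak of 88 tags and 9.63-fold stands farthest right among them, and the TNRC6B peak of 9 tags and 16.56-fold is the highest.

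AGO2, the argonaute that cuts its target, had the peak with the most tags among those named for the members. This exon peak on chromosome 8 (141540560 to 141542295) had 88 tags, 9.63-fold enrichment and a p score of 79.11. The p score equals -10 times log10 of the p-value of the peak calling. The counting interval of the 88 tags ran from 70.6 to 108 (95%, exact Poisson, counting error only). The tag count was higher than that of 89.1% of all mRNA peaks and the fold was higher than that of 74.6%. The peak lay across the listed 3′ end of AGO2 at 141541263, so that 1033 of its 1736 bases were on the transcript and the rest lay beyond it.

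The other AGO2 peaks were smaller. The intron peak (141621003 to 141621206) held 8 tags at 2.84-fold enrichment, and 1.58% of mRNA peaks had a lower fold. The remaining 3 peaks were intergenic. They lay 65437, 111156 and 167913 bases before the listed AGO2 start, with 22, 7 and 6 tags and folds of 6.03, 5.7 and 9.2. These 3 peaks are thus outside AGO2 and lie on the side of PTK2, which encodes focal adhesion kinase and is the next protein-coding gene in RefSeq. PTK2 was named for 0 peaks in both tables, and its hg19 ends were not used here, so overlap with PTK2 was not examined. AGO2 was among the 153 genes with at least 5 named peaks, 2.95% of the mRNA table, and 2 of its 5 peaks were on its transcript. Over all members 4 of the 10 named peaks were, beside 65.4% of all mRNA peaks.

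A pair of peaks continued past the 3′ end of AGO2 under another name. They were in the lncRNA table, where they were named for CHRAC1, a histone-fold subunit of chromatin remodeling complexes, through a noncoding transcript. The first (141536584 to 141538473) began 2790 bases beyond the listed AGO2 end and had 77 tags and 9-fold enrichment. The second (141531100 to 141536145) began 5118 bases beyond it and had 178 tags, 8-fold enrichment and a p score of 253.06. The second peak held more tags than 94.5% of the peaks of both tables. The false discovery rates were 86.61% and 100%.

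Along with the AGO2 exon peak, these peaks formed a run of 3 within 11196 bases, with gaps of 438 and 2086 bases and 343 tags in all. The 2 peaks beyond the listed end held 255 of these tags. Both lie between CHRAC1 and AGO2, genes whose listed 3′ ends face each other across 14010 bases, and no gene stands between them in RefSeq. The peaks carry no strand, so RNA of AGO2 and RNA of CHRAC1 read past their listed ends cannot be told apart in this interval.

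The second question was whether the names of the peaks followed the transcripts they lie on. For AGO1 and AGO3 they did not. AGO3, an argonaute with a role in microRNA silencing like that of AGO1, was named for 2 upstream peaks on chromosome 1. The first (36385081 to 36386704) had 23 tags, 14.72-fold enrichment and a p score of 101.54. The second (36386794 to 36388421) had 32 tags, 9.49-fold enrichment and a p score of 122.19. Both lie outside AGO3, 10790 and 9075 bases before its listed start by their centers.

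Both AGO3 peaks lie entirely on the listed transcript of AGO1, the neighboring argonaute gene. AGO1 was listed from 36335408 to 36389899, and AGO3 began 6782 bases after that end on the same strand. The pair was separated by 89 bases, held 55 tags and ended 1478 bases before the listed AGO1 end, at 92.6% and 95.8% of the length of AGO1. The center of the first peak was 50484 bases from the AGO1 start, far more than from the AGO3 start. The fold of 14.72 was higher than that of 94.4% of mRNA peaks. By position, then, AGO1 had 2 peaks near its 3′ end and AGO3 had none on its transcript under any name.

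The peak named for AGO1 itself had fewer tags and a lower p score than the 2 peaks named for AGO3. It lay 14787 bases before the listed AGO1 start (36320346 to 36320896) and had 7 tags, 9.2-fold enrichment and a p score of 37.77. Its false discovery rate was 44.05%, beside 55.15% and 66.61% for the peaks named for AGO3. The counting interval of the 7 tags ran from 2.81 to 14.4. The same fold was found at 75 of the 784 mRNA peaks with 7 tags. AGO4, the next argonaute gene on that side in RefSeq, was not listed in the tables. Its hg19 ends were not used here, so it was not examined whether the peak lies on AGO4. The nearest peak before it was 287931 bases away, and the first peak past AGO3, named for TEKT2 with 6 tags and 8.7-fold enrichment, began 6825 bases after the listed AGO3 end. The argonaute cluster on chromosome 1 thus held 3 peaks from the AGO4 side to the end of AGO3.

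TNRC6B, a TNRC6 protein that links argonautes to the deadenylases, showed the same mismatch in part. Its own 2 peaks on chromosome 22 were exon peaks and overlapped the transcript. The first (40719093 to 40719462) had 9 tags, 16.56-fold enrichment and a p score of 66.26, the highest fold of any member. The second (40657830 to 40658078) had 6 tags and 7.8-fold enrichment. The fold of 16.56 was the highest that any of the 491 mRNA peaks with 9 tags reached, and 35 of them had it. The counting interval of 9 tags ran from 4.12 to 17.1.

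A further 3 peaks lay on the listed TNRC6B transcript but were named for ADSL, an enzyme of purine synthesis whose listed start follows 10690 bases after the TNRC6B end. They had 15, 16 and 10 tags and folds of 4.47, 11.93 and 11.18, at 40726328 to 40727276, 40728058 to 40728914 and 40730231 to 40731033. Their p scores were 30.29, 71.55 and 36.9, beside a lowest p score of 30.25 among the peaks named for the members. All 3 lay within 5484 bases of the listed TNRC6B end, and the last of them ended 779 bases before it. They held 41 tags, more than the 15 tags of the peaks named for TNRC6B. ADSL itself is outside these peaks, which were called upstream of it.

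**Figure D2:**
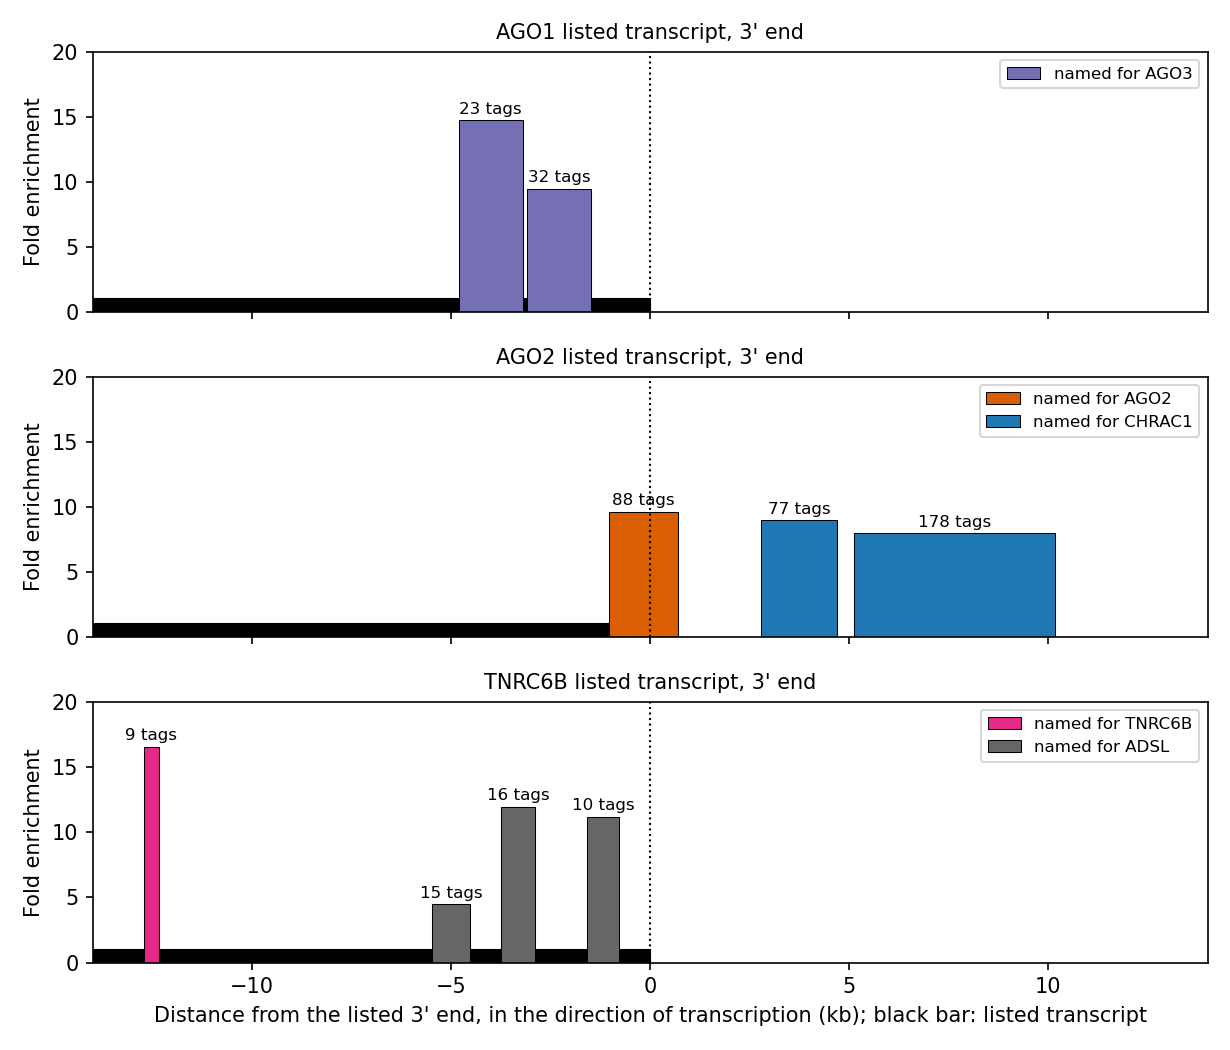
Peaks near the listed 3′ ends of AGO1, AGO2 and TNRC6B, with the distance from that end in kb on the x axis (negative values lie on the transcript, drawn as a black bar) and the fold enrichment of PTBP1 over IgG on the y axis. Bar width is the peak length and color is the gene the peak was named for. The peaks named for AGO3 lie on AGO1, those named for ADSL lie on TNRC6B, and those named for CHRAC1 continue past the end of AGO2 with 77 and 178 tags.

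Counted by position under any name, 3 of the 4 members in the mRNA table had a peak on the transcript, beside 3733 of its 5186 genes. TNRC6B had 5, AGO1 had 2 and AGO2 had 2, 9 in all. Only 4 of these 9 peaks bore the name of the gene they lay on, and the same share over all genes was not counted. Of all 10254 peak positions in the tables, 93.0% were named for the gene whose listed start was nearest to the center of the peak within 1 base, whether or not the peak lay on that gene. Only genes with a named peak have a listed start, so nearer genes without one were not compared and the share may be too high. AGO1 was among 123 genes of the mRNA table, 2.37%, with a peak on the transcript only under the name of another gene. Genes without any listed transcript could not be counted in this way.

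Most of the peaks on the transcripts were close to the 3′ end. The centers of 6 of the 9 lay within 6000 bases of the listed end, namely both on AGO1, 1 on AGO2 and 3 on TNRC6B. Counted in the same way, by position under any name, 21.7% of the 2913 pairs of a peak and a gene with a listed transcript of over 50000 bases lay this close to a listed end. Of the 4 member peaks on a transcript under its own name, 1 did, at AGO2, beside 18.5% of 2561 such peaks on transcripts of this length. Of 1757 genes with a listed transcript of over 50000 bases, 30.1% had at least 1 peak there under any name, 4.89% at least 2 and 0.854% at least 3. AGO1 was among the 86 genes with at least 2, and TNRC6B was among the 15 with at least 3. These counts take the peaks as called. The AGO1 pair was 89 bases apart and would count as 1 peak if peaks within 1000 bases were merged. The first 2 of the 3 TNRC6B peaks also lie within that distance. The shares over all genes were not counted with merged peaks. The distance of 6000 bases was set after the positions were seen, so these counts are a description.

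For TNRC6A and TNRC6C, positions could be read from the gene order alone, since their hg19 ends were not used here. TNRC6A lies between CACNG3 and SLC5A11 on chromosome 16 in the RefSeq gene order. The 483813 bases from the listed CACNG3 end to the listed SLC5A11 start held 0 peaks of either table. TNRC6C lies between SEPT9 and SYNGR2 on chromosome 17. The only peak there was 9291 bases before the listed SYNGR2 start (6 tags, 3.13-fold), with the genes TMC6, TMC8 and C17orf99 between TNRC6C and SYNGR2. The 658454 bases from the SEPT9 end to that peak held none. The distance of that peak from TNRC6C was not measured. The depth of the libraries is not known here and the fewest tags in a peak were 6, so a signal of TNRC6A or TNRC6C below that level was not detectable.

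The third question was how the partners of the silencing genes compared. Genes of microRNA processing had named peaks at 6 of 14, and 5 of these had a peak on their own transcript. XPO5, the exporter of precursor microRNAs, reached 16.56-fold in an exon with 9 tags. DROSHA, the nuclear enzyme that releases the precursor, had 4 peaks with folds of up to 11.04 (6 tags). TUT7, a terminal uridylyltransferase listed as ZCCHC6, had its best peak at the same fold with 8 tags, 233750 bases before its start and outside the gene. DDX5, a helicase of the DROSHA complex, was named for 3 peaks of up to 10.44-fold, all outside the gene. DICER1, which cuts the precursor, had 1 exon peak of 7.83-fold and 6 tags.

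Genes for the loading, transport and modification of argonautes had named peaks at 5 of 15, and 4 of these had a peak on the transcript. IPO8, an importin that binds argonautes, had 3 peaks, with the best at 18.4-fold and 14 tags upstream of the gene. P4HA1, a subunit of the prolyl hydroxylase that modifies AGO2, reached 14.72-fold in an exon with 8 tags. CSNK1A1, the casein kinase that phosphorylates AGO2, had an intron peak of 12.88-fold and 8 tags. DNAJC7, a co-chaperone, had a promoter peak of 8.09-fold and 37 tags.

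The effector partners that meet argonaute and TNRC6 proteins on the target had named peaks at 4 of 11, and 3 of these had a peak on the transcript. MOV10, a helicase that associates with argonautes, had an intron peak of 10.14-fold and 41 tags. PAN2, a deadenylase subunit, had 2 peaks of up to 9.49-fold, none on the transcript. CNOT9, the subunit of the CCR4-NOT complex that binds TNRC6 proteins, had a promoter peak of 8.35-fold and 11 tags. AJUBA, a LIM-domain partner of the complex, had an exon peak of 7.87-fold with 153 tags. The PIWI clade, the argonaute relatives known from the germ line, had named peaks at 0 of 4.

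Over the 4 lists, 15 of 44 genes (34.1%) had a named peak, beside 25.7% of protein-coding genes. Of the 44, 12 had one on the transcript, beside 17.9% of protein-coding genes. The median of the best fold was 12.18 over the 4 members with a peak and 10.14 over the 15 partner genes, beside 7.96 over all genes of the mRNA table. These best folds follow the names of the peaks, whether or not the peak lies on the gene. The best peaks of AGO2 and TNRC6B overlapped their transcripts. Those of AGO1 (9.2-fold) and AGO3 (14.72-fold) lay outside the gene, the latter on AGO1. Most partner genes had their best peak on the transcript, but IPO8, TUT7, DDX5 and PAN2 were among those that did not. The medians thus do not measure enrichment of each gene's own RNA. The best fold often rested on few tags, 9 for TNRC6B and XPO5. The folds of DROSHA (11.04 with 6 tags), P4HA1 (14.72 with 8) and XPO5 (16.56 with 9) were the highest of any mRNA peak with as many tags. Of the gastric epithelial markers, MUC1 and CLDN18 were named for a peak and the other 10 of 12 were not, CDH1, EPCAM and the keratins included. An immunoprecipitate does not measure expression, so this does not test the label of the cell line.

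**Figure D3:**
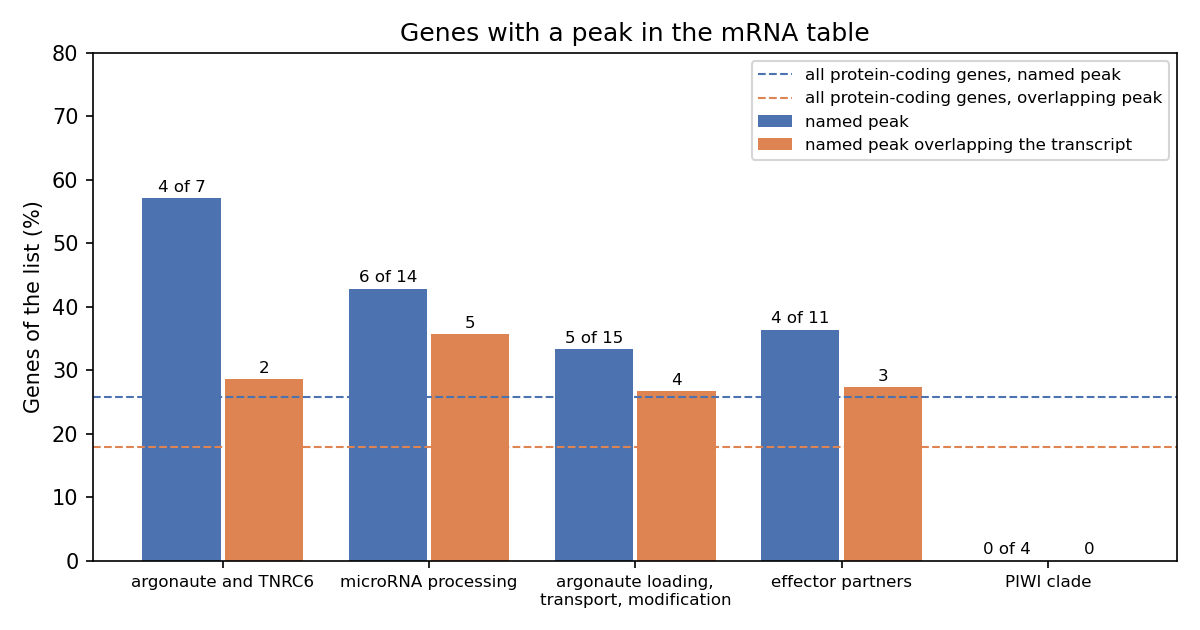
Bars give the percent of genes in each list with a named peak in the mRNA table (blue) and with a named peak overlapping its transcript (orange), with the counts above the bars. Dashed lines give the same shares over all protein-coding genes (25.7% and 17.9%). The argonaute and TNRC6 genes had named peaks at 4 of 7, of which 2 had an overlapping peak, and the PIWI clade had 0 of 4.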

How the data were processed

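RIP-seq was done in MKN-28 cells with 1 PTBP1 library and 1 IgG library. The submitters' processing notes name cutadapt (1.9.3), Bowtie2 (2.2.4) and hg19. The sources used here name neither the peak caller nor the strand of the library. The authors deposited the tag count in each peak without naming the library counted, the fold over IgG as a ratio, the p-value as a score and the false discovery rate as a percent. How reads shared by gene paralogs were placed is not stated, and total reads are not known here. These columns come from the authors' peak calling, and no per-library column was analysed here.

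Peaks were counted once per position and overlap needed 1 shared base. Coordinates count from 1. Names, gene classes and gene order came from RefSeq of GRCh38.p14, without its coordinates (5123 of 5186 mRNA symbols matched by accession). Order was taken to hold on hg19. The members and gene lists were chosen with earlier results of these data known. Named genes were the members, genes sharing a peak or transcript with them, neighbors of members without a peak, and up to 4 genes of highest fold per list. PTK2, TEKT2, DICER1, CDH1, EPCAM and the keratins fall outside this rule and were chosen after their values were seen. The overlap and distance steps were tested on simulated data. Alternatives were fold, tag and p score minimums, other overlaps, merged peaks, added lncRNA peaks, no promoter peaks and other values per gene. The steps ran in Python (3.11.15) with numpy (2.4.6), pandas (2.3.3), matplotlib (3.10.9) and scipy (1.17.1).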

Additional observations from a re-analysis of the deposited data

How the results depend on the processing

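With a fold of at least 10, 2 members kept a named peak, beside 8.46% of protein-coding genes, and 1 an overlapping peak. Of the 10 peaks 2 were left, with a median best fold of 15.64. A fold minimum cannot lower this median, and the median over all genes at this minimum is not given here. With at least 20 tags there were 2 members, beside 12.1% of protein-coding genes, and 4 peaks. An overlapping peak was left at 1 of these members. A p score minimum of 50 left 3 members with a named peak and 6 peaks, and the median best fold was 14.72. Neither the share of protein-coding genes nor the median over all genes is given here for this p score minimum. The counts at the fold, tag and p score minimums are lower because fewer peaks were used. Shares of protein-coding genes with an overlapping peak at these minimums are not given here. The median per member was 10.65 for the mean fold and 9.56 for the peak with the most tags, beside 7.22 and 6.54 over all genes. These medians also follow the names, so they include the peaks named for AGO1 and AGO3 outside those genes. Of the 44 partner genes, 8 had a named peak of at least 10-fold, beside 8.46% of protein-coding genes. A named peak of at least 20 tags was found at 9, beside 12.1%. Counted under any name, an alternative added after seeing the data, 3 members had an overlapping peak and 9 peaks lay on transcripts. Under any name 3733 of the 5186 genes of the mRNA table had an overlapping peak. A fold of at least 4, the lncRNA table and the promoter class left the counts of members unchanged. No paired analysis was possible because each antibody had 1 library. Peaks of 6 to 9 tags, 6 of the 10, limit the precision.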
